A study of Mus musculus with 4 samples.

Results

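The genes described here encode splicing factors and heterogeneous nuclear ribonucleoproteins (hnRNPs), examined through the chromatin at their promoters in mouse natural killer (NK) cells, cytotoxic lymphocytes of the innate immune system. They are the protein-coding genes of GENCODE M21 whose symbols begin with Srsf and a digit, Hnrnp, Sf3a or Sf3b and a digit, or Snrp, which gave 52 of the 21755 coding genes on the autosomes and the X chromosome. By family these are 20 hnRNP genes, 11 Srsf genes of the serine- and arginine-rich (SR) proteins, 9 Sf3a and Sf3b genes and 12 Snrp genes. Chromatin was assayed by DNase-seq, in which dense cutting by the nuclease DNase I marks accessible DNA. The 4 libraries formed a single group, NK primary cells of virgin adult female B6CASTF1/J mice aged 2 months, an F1 cross of C57BL/6J and CAST animals, with no treatment or genotype to compare. Each library had its own biosample under 1 shared donor identifier, and the tissue and the sorting of the cells were not stated, so the SD over libraries (n = 4 throughout) measures the spread between these libraries and may be partly technical.

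Pre-mRNA splicing removes introns in a machine of small nuclear RNAs and proteins, the spliceosome. The Sm proteins, most of them Snrp products, form a ring on the small nuclear RNAs, and the SF3A and SF3B complexes hold the U2 particle on the branch point of the intron. SR proteins mostly bind exons and promote their inclusion, whereas hnRNPs coat nascent transcripts and often block splice sites, and the balance of both groups sets many alternative exons, among them those of the lymphocyte phosphatase Cd45.

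Promoter signal is the highest value the authors gave to a peak of accessibility within 1 kb of the annotated gene 5' end, taken as 0 without a peak, and a recurrent region is one found in at least 3 of the 4 libraries. Of the 52 genes, 46 had such a region at the promoter (88.5%), against 50.3% of all protein-coding genes. All 46 had a promoter peak in all 4 libraries, which held for 47.6% of all protein-coding genes. The median promoter signal over the 52 genes was 7.87 ± 1.70, against 0.399 ± 0.271 over all protein-coding genes and 4.54 ± 1.07 over the 10937 genes with a recurrent promoter region. Of all protein-coding genes, 9443 had no promoter peak in any library, so the genes with a recurrent region are the closer standard. The 5 of the 52 genes without a peak in any library were Hnrnpm, Sf3b5, Snrpa1, Snrpc and Snrpn, and Srsf12 had one in replicate 3.

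The bases themselves show what these promoters hold. Below are the strongest regions of genes from each family, chosen because the later results on motifs and signal turn on them, written 5' to 3' on the strand of the gene from the GRCm38.p6 (mm10) reference. Capitals mark bases lying in a footprint, a short stretch protected from cutting within accessible DNA, in all 4 libraries.
Hnrnpc (chr14:52104118-52104417, minus strand, the 300 bp of the region with the most footprinted bases): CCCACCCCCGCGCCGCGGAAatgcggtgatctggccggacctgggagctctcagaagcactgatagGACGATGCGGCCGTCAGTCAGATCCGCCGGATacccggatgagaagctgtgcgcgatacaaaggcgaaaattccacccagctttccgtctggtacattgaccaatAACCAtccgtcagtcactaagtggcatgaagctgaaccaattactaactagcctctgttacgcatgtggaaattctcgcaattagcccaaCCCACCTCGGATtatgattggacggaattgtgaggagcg
Hnrnpr (chr4:136310761-136311020, plus strand): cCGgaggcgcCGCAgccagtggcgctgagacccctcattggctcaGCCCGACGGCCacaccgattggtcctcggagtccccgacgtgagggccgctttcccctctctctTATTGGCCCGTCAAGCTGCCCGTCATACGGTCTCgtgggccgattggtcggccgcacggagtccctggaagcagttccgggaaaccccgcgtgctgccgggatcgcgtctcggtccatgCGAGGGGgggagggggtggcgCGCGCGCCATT
Srsf3 (chr17:29032461-29032700, plus strand): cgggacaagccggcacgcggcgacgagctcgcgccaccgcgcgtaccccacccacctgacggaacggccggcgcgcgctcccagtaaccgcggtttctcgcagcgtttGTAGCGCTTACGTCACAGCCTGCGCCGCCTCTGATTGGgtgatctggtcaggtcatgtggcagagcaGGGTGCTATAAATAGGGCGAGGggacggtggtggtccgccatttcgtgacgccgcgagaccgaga
Srsf5 (chr12:80945361-80945580, plus strand): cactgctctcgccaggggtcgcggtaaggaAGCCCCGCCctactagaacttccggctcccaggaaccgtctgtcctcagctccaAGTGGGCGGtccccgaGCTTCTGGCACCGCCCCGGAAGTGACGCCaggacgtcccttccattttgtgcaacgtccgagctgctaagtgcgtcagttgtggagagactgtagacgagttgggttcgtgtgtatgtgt
Srsf7 (chr17:80207221-80207480, minus strand): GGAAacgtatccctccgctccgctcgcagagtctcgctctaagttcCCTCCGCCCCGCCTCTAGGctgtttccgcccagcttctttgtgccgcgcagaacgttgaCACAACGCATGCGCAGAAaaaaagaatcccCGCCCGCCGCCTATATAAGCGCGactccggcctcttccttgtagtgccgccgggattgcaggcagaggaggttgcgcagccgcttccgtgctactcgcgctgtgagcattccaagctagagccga
Sf3b6 (chr12:4817401-4817620, plus strand): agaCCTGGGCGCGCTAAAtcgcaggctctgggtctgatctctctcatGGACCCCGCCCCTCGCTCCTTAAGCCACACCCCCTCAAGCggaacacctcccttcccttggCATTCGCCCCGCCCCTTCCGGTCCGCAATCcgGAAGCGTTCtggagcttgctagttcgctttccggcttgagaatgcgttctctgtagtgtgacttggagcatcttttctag
Sf3a3 (chr4:124714641-124714880, plus strand): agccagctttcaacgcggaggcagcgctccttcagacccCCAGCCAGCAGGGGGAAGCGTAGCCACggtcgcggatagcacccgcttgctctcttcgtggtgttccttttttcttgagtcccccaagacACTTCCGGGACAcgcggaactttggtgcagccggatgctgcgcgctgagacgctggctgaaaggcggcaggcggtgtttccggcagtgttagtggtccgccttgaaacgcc
Snrpg (chr6:86371361-86371600, plus strand): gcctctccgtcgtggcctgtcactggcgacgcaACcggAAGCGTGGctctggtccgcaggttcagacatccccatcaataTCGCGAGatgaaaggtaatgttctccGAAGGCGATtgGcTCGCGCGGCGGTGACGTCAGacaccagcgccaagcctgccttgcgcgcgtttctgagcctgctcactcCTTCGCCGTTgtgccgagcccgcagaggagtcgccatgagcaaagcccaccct
The footprinted bases numbered 94 of 220 in Sf3b6, 69 of 300 in Hnrnpc, 69 of 260 in Hnrnpr, 64 of 260 in Srsf7, 60 of 240 in Srsf3, 57 of 240 in Snrpg, 47 of 220 in Srsf5 and 39 of 240 in Sf3a3. In Srsf3 a TATAAA lies in a footprint, in Srsf5 the letters CCGGAAGT adjoin a CCGCCC within 1 footprinted run, and in Srsf7 the footprinted CGCATGCGC is a match to the element of the factor NRF1.

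Across the libraries, the longer peak lists held 36247 to 69144 peaks and the footprint lists 95919 to 185119 footprints, with replicate 3 highest and replicate 4 lowest in both. Among the 46 genes, replicate 3 gave the highest signal for 41, replicate 4 for 4 and replicate 2 for 1, while replicate 1 gave the lowest for 33 and replicate 4 for 13. The scale of the signal between libraries is not stated, so families were also compared by percentile among all protein-coding genes of the same library, in which genes with equal signal share their mean rank. The order of the 46 genes was close between libraries, with Spearman coefficients across genes of 0.867 (replicates 1 and 4) to 0.964 (replicates 2 and 3), a description of genes that share libraries and sequence. Of the 8 NK marker genes, 5 had a recurrent promoter region (Il2rb, Prf1, Nkg7, Ncr1 and Eomes), Tbx21 and Klrk1 had a peak in 2 libraries, and Klrb1c had one in replicate 3. No peak was found at Cd3e, Cd3d, Cd4, Cd8a, Csf1r, Lyz2 or Ly6g, but 1 of 5 T cell markers (Cd3g), 3 of 5 B cell markers (Pax5, Cd79b and Ms4a1) and 2 of 5 myeloid markers (Cd68 and Itgam) had a recurrent region. The summed marker signal ranged over libraries from 19.4 to 51.1 for the NK list, with replicate 3 highest. It was 0 to 0.598 for the T cell list, 0.532 to 4.71 for the B cell list, with replicate 3 lowest, and 2.27 to 5.27 for the myeloid list. The myeloid sum came from Cd68 and Itgam alone. No listed gene was shown to be open in its named cell type only, so these sums do not measure a share of other cells. The part of other cells in the values below was not tested, and in chromatin of a bulk sample fewer cells with an open region and less cutting per cell cannot be told apart.

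Within 1 kb of the 5' end, the hnRNP genes had the strongest promoters of the 4 families. Their median signal was 8.28, 11.0, 14.2 and 11.0 in replicates 1 to 4 (11.1 ± 2.43). SR genes had medians of 6.39, 7.47, 9.68 and 8.64 (8.05 ± 1.42). The medians of the Sf3a and Sf3b genes were 4.91, 6.03, 7.18 and 6.04 (6.04 ± 0.928), and those of the Snrp genes 5.35, 6.41, 7.95 and 4.03 (5.94 ± 1.66). Within every library the hnRNP median was above the SR median, and the SR median was above both spliceosome families, although the ranges over libraries overlapped between families because of the differences in level between libraries. The Sf3a and Sf3b median was above the Snrp median in 1 of 4 libraries, replicate 4, so these families were not separated. With 4 libraries an exact two-sided sign-flip test cannot give a p under 0.125, so no test was made.

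On the percentile scale the libraries drew together. The hnRNP median stood at the 93.8 ± 0.505 percentile of protein-coding genes, the SR median at 87.3 ± 2.62, the Sf3a and Sf3b median at 80.8 ± 2.45 and the Snrp median at 80.4 ± 2.50, against 74.9 ± 0.0107 for genes with a recurrent promoter region. That last value and its small SD are largely fixed by the share of genes with such a region. By library the hnRNP median was 93.4, 94.0, 93.3 and 94.4, and the SR median 87.6, 85.3, 85.4 and 90.9, without overlap. The difference of SR minus hnRNP was -6.49 ± 2.33 percentile points and lay between -8.70 and -3.51 in the 4 libraries. With a window of 500 bp in place of 1 kb the medians were close, 88.4 ± 1.48 for hnRNP and 87.8 ± 2.52 for SR genes. A mean percentile above 90 was reached by 22 of the 52 genes, against 9.70% of all protein-coding genes, and these were 12 of 20 hnRNP, 5 of 11 SR, 3 of 9 Sf3a and Sf3b and 2 of 12 Snrp genes.

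**Figure D1:**
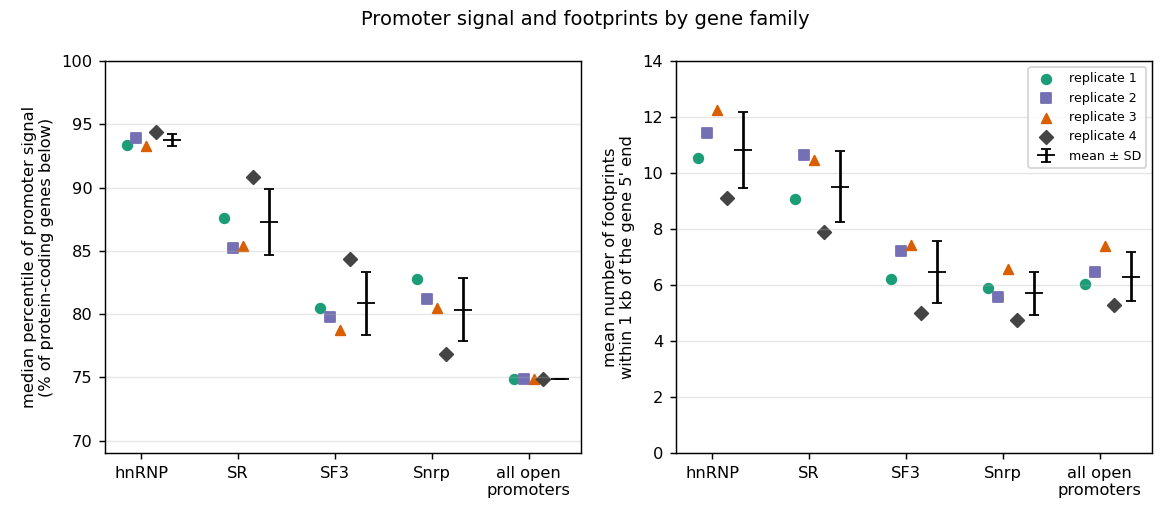
Promoter signal as the median percentile among protein-coding genes (left, %) and the mean number of promoter footprints (right) for each family (SF3, the Sf3a and Sf3b genes) and for all genes with a recurrent promoter region ("all open promoters"). Points are the 4 libraries and bars the mean ± SD. The family values include genes without a recurrent promoter region. The percentile of all open promoters is largely fixed by the share of genes in that set. The hnRNP points lie between 93.3 and 94.4 and above every other family, while the points of the Sf3a and Sf3b genes and the Snrp genes overlap.

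Footprints, counted within 1 kb of the 5' end, gave the same order for the first families. The mean number per gene was 10.8 ± 1.35 for hnRNP genes, 9.52 ± 1.28 for SR genes, 6.47 ± 1.12 for Sf3a and Sf3b genes and 5.71 ± 0.762 for Snrp genes. Every pair of families kept this order in 4 of 4 libraries. Over all protein-coding genes the mean was 3.20 ± 0.465, and over those with a recurrent promoter region 6.30 ± 0.882. The family means include genes without such a region, which was present at 9 of 12 Snrp genes and 8 of 9 Sf3a and Sf3b genes. They are therefore not like for like with 6.30. The order of these lower families was not compared over genes with a region alone. With a window of 500 bp in place of 1 kb the first pair turned round, with 7.90 ± 0.736 footprints for hnRNP genes and 8.25 ± 1.34 for SR genes. Footprints covered 25.4% ± 1.89 of the peak bases at the median member, against 19.7% ± 1.92 at the median of all genes with such peaks, and the share was higher for the members in each library.

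Among hnRNP genes, which package nascent transcripts and steer exon choice, Hnrnpc was highest. Hnrnpc, whose product binds uridine tracts and keeps cryptic exons out, had a signal of 14.1, 18.4, 29.2 and 19.5 in replicates 1 to 4 (20.3 ± 6.36) and ranked 56 of 21755 genes. Its 420 bp region centred at -222 bp, upstream of the annotated 5' end, and did not reach it. Hnrnpul1, an hnRNP U-like protein, had 13.6, 16.9, 22.8 and 18.5 (18.0 ± 3.82), and Hnrnpa2b1, which acts in splicing and in RNA transport, had 14.4, 16.8, 21.4 and 17.6 (17.6 ± 2.90). In all 3 genes replicate 1 was lowest and replicate 3 highest. Nearly the whole window of Hnrnpa2b1, 1998.5 of 2001 bp in the mean library, had a false discovery rate below 0.001 for the cut rate, and it held 3 recurrent regions.

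Next in order were Hnrnph1 (14.4 ± 3.88), a protein of G-rich elements, Hnrnpa3 (14.4 ± 4.15), Hnrnpul2 (13.0 ± 2.88), Hnrnpa1 (12.9 ± 3.22), the poly(C)-binding Hnrnpk (12.8 ± 3.08), Hnrnph3 (12.8 ± 3.64) and Hnrnpr (12.2 ± 2.05). The ranges of these 7 genes over the libraries overlap. Within each library Hnrnph1 was above Hnrnpa1, Hnrnph3 and Hnrnpr, and Hnrnpa3 was above Hnrnpa1. The remaining pairs did not keep 1 order in all libraries. Lower levels were found at Hnrnpab (9.72 ± 2.50), Hnrnpdl (9.29 ± 2.18), the CA-repeat binding Hnrnpl (9.23 ± 2.71), Hnrnpa0 (7.60 ± 2.13), the scaffold attachment protein gene Hnrnpu (6.44 ± 1.28), Hnrnpd (5.69 ± 1.12), whose product AUF1 binds AU-rich elements, and the X-linked Hnrnph2 (5.01 ± 1.55). Hnrnpll, known from T cells as a repressor of Cd45 exons, had 4.24, 3.09, 5.07 and 2.04 (3.61 ± 1.33) and stood at the 70.6 percentile in the mean of the libraries. Hnrnpf, a paralog of Hnrnph1, had 1.73, 2.24, 3.82 and 1.97 (2.44 ± 0.945) at its annotated 5' end, the lowest value of the family above 0, and Hnrnpm had none.

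**Figure D2:**
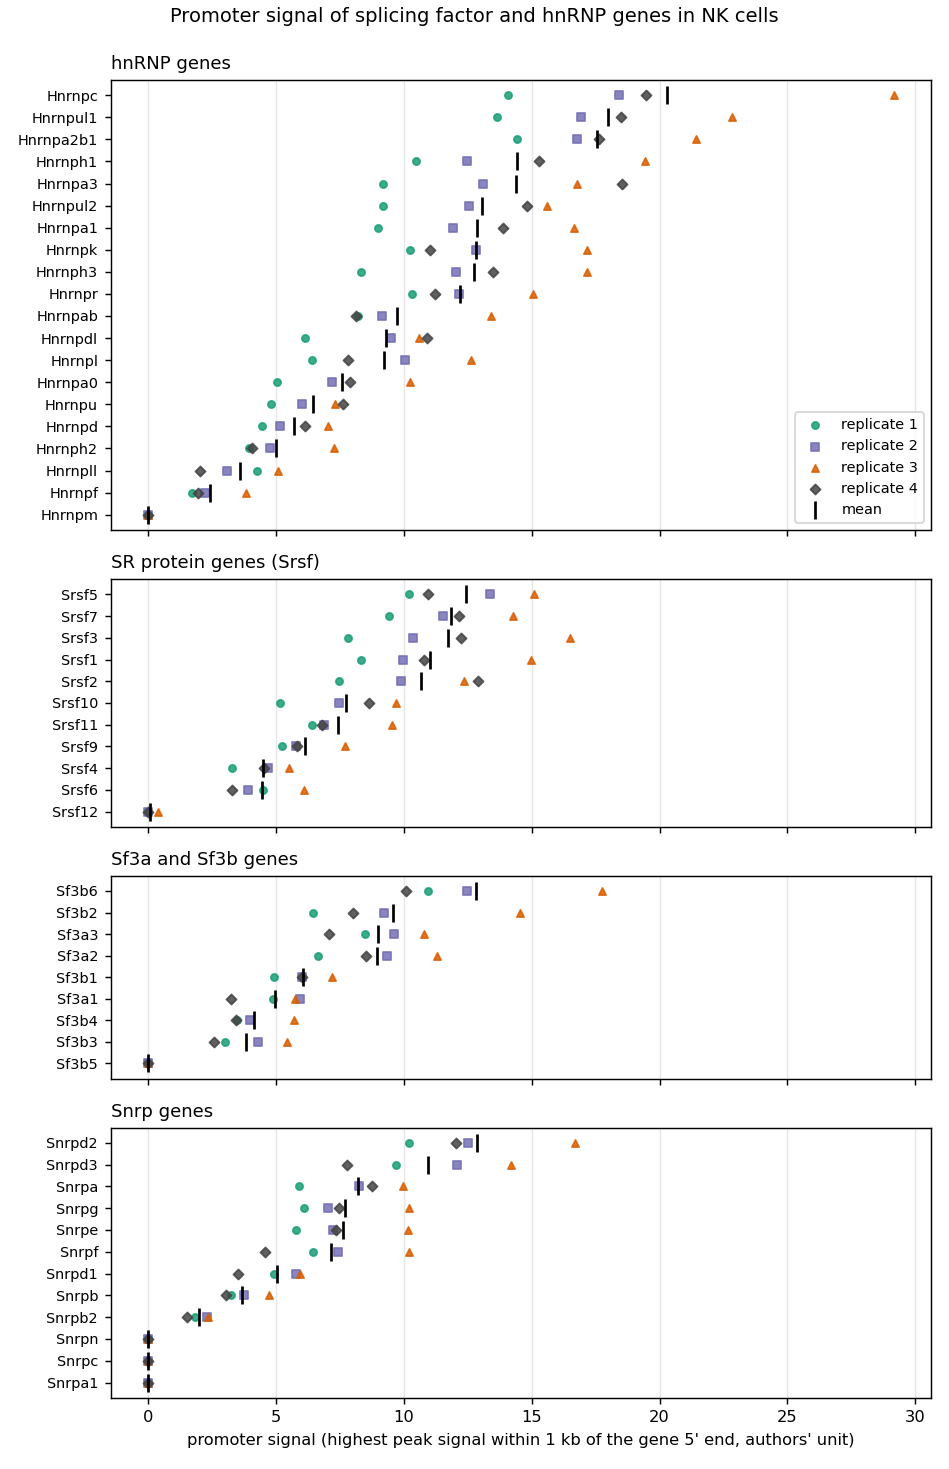
Promoter signal (x axis, the authors' unit) of the 52 genes by family. Symbols are the 4 libraries and bars the means. Hnrnpc reached 29.2 in replicate 3 and had the highest mean, 20.3, and 5 genes stood at 0 in every library.

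SR genes spanned a narrower range. The highest was Srsf5 with 10.2, 13.4, 15.1 and 11.0 (12.4 ± 2.25), followed by Srsf7 with 9.40, 11.5, 14.3 and 12.1 (11.8 ± 2.00) and Srsf3, also an adaptor of mRNA export, with 7.83, 10.3, 16.5 and 12.2 (11.7 ± 3.66). These 3 values overlap in their libraries and are not separated. Srsf1 (11.0 ± 2.84), the founding member that binds exonic enhancers, and Srsf2 (10.7 ± 2.50), the marker protein of nuclear speckles, lay close behind. The middle of the family was formed by Srsf10 (7.74 ± 1.94), Srsf11 (7.41 ± 1.44), Srsf9 (6.14 ± 1.08) and Srsf4 (4.50 ± 0.910). Srsf6 had 4.49, 3.91, 6.08 and 3.30 (4.44 ± 1.19), and Srsf12 had 0.374 in replicate 3 and no peak in the other libraries.

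The Sf3a and Sf3b genes all encode parts of the U2 particle. Sf3b6, whose product contacts the branch point adenosine, was the highest with 10.9, 12.5, 17.7 and 10.1 (12.8 ± 3.43), and it stood above the other members in each library. Sf3b2 had 6.46, 9.24, 14.5 and 8.02 (9.56 ± 3.50) and Sf3a3 had 8.48, 9.63, 10.8 and 7.06 (8.99 ± 1.59). Sf3a2 (8.95 ± 1.93) was level with these, whereas Sf3b1 (6.04 ± 0.928), the large subunit that clamps the branch site, Sf3a1 (4.95 ± 1.23) and Sf3b4 (4.15 ± 1.07) were lower. Sf3b3 had 3.01, 4.30, 5.42 and 2.57 (3.82 ± 1.30), and Sf3b5 had no peak within 1 kb.

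Of the Snrp genes, those for the Sm ring covered most of the range. Snrpd2 had 10.2, 12.5, 16.7 and 12.0 (12.9 ± 2.74) and Snrpd3 had 9.71, 12.1, 14.2 and 7.79 (10.9 ± 2.79). Neither strongest region reached the annotated 5' end, with centres at -342 bp for Snrpd2 and 380 bp for Snrpd3. Another coding gene starts 431 bp from the 5' end of Snrpd2 and 421 bp from that of Snrpd3. Snrpg (7.70 ± 1.76), Snrpe (7.63 ± 1.83) and Snrpf (7.15 ± 2.35) lay together, Snrpd1 (5.04 ± 1.12) and Snrpb (3.69 ± 0.753) lower. Snrpa, for the A protein of the U1 particle, had 5.91, 8.25, 9.96 and 8.74 (8.21 ± 1.70). Snrpb2, for a protein of the U2 particle, had the lowest signal of any of the 46 genes, with 1.83, 2.31, 2.33 and 1.54 (2.00 ± 0.386). No peak within 1 kb was found at Snrpc, for another U1 protein, at Snrpa1, for the partner of Snrpb2 in the U2 particle, or at Snrpn, an imprinted Sm gene known from neurons.

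The number of footprints followed the signal loosely. Across the 46 genes the Spearman coefficient of the pair was 0.467 ± 0.0776, against 0.597 ± 0.0391 across the 10351 genes with a promoter peak in all 4 libraries, both descriptions over genes that share libraries. Hnrnpa1, a repressor of many exons, had 22, 20, 26 and 22 footprints in replicates 1 to 4 (22.5 ± 2.52), which ranked 4 of 21755 genes, at a signal that ranked 795. Srsf2 had 17, 17, 21 and 13 (17.0 ± 3.27), and Hnrnpa0, an intronless relative of Hnrnpa1, had 20, 17, 14 and 13 (16.0 ± 3.16). Next came Hnrnpul1 with 16, 15, 18 and 12 (15.25 ± 2.50) and Srsf6 with 10, 23, 14 and 14 (15.25 ± 5.50), the widest spread among these genes because of replicate 2. Sf3b6 showed the opposite pairing, with 5, 5, 4 and 5 footprints (4.75 ± 0.50) at the highest signal of its family, and footprints covered 47.6% of its peak bases.

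**Figure D3:**
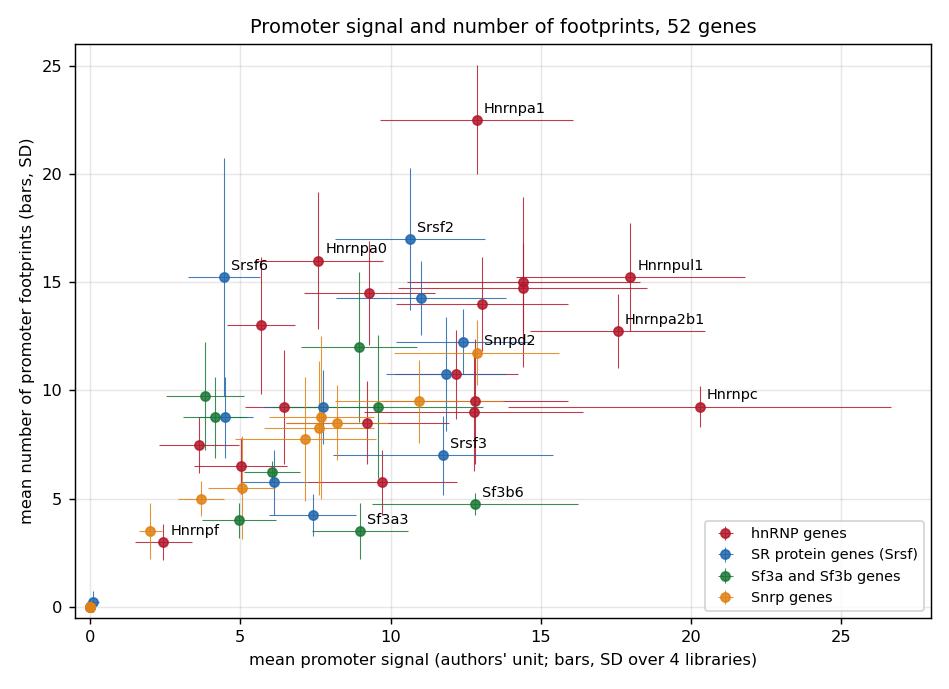
Mean promoter signal (x axis, the authors' unit) against the mean number of promoter footprints (y axis) of the 52 genes, coloured by family, with bars of 1 SD over the 4 libraries. Hnrnpa1 stands highest with 22.5 footprints, and Sf3b6 combines a signal of 12.8 with 4.75 footprints.

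Region widths ranged widely. The median width of the strongest region was 280 bp for the 46 genes, against 287 bp over all genes with a recurrent region, and the widest were 960 bp at Hnrnpa1, 800 bp at Hnrnpul2 and 780 bp at Srsf2. Each of these 3 lies at a neighbouring coding gene in the opposite orientation, Cbx5 at 616 bp, Ttc9c at 677 bp and Mfsd11 at 654 bp. In all, 16 of the 52 genes (30.8%) had the 5' end of another coding gene within 1 kb, against 12.7% of all protein-coding genes. All 16 neighbours lay on the opposite strand. The share of opposite strands over all genes was not computed, so this is not read as particular to the described genes. A peak between such genes counts for both. Hnrnpa2b1 shares its window with Cbx3 at 466 bp and Hnrnpa1 with Cbx5, so that both hnRNP genes adjoin a gene for a heterochromatin protein 1. The other neighbours were Pbld2 of Hnrnph3, Enoph1 of Hnrnpdl, 4930524J08Rik of Hnrnpd, Gla of Hnrnph2, Ttc39d of Srsf7, Lrrc40 of Srsf11, Plekhj1 of Sf3a2, Ccdc157 of Sf3a1, Cog4 of Sf3b3, Qpctl of Snrpd2, Gucd1 of Snrpd3 and BC024978 of Snrpa.

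Of the 6 genes with no recurrent region at the annotated 5' end, 4 had one farther inside the gene, in all 4 libraries. Hnrnpm, for a splicing repressor of GU-rich elements, had 7.02, 9.76, 12.6 and 10.4 (9.96 ± 2.32) at 1410 bp downstream. Sf3b5 had 5.53, 7.05, 8.83 and 5.51 (6.73 ± 1.57) at 3058 bp, and Snrpc had 4.23, 4.84, 9.34 and 4.77 (5.79 ± 2.38) at 1910 bp. Snrpa1 had 2.14, 2.60, 2.63 and 1.53 (2.22 ± 0.516) at 1518 bp. None of the 4 was at 0 in any library, and the level of Hnrnpm lies within the range of the other hnRNP promoters. A RefSeq transcript start lies within the regions of Hnrnpm and Snrpc and 45 bp from that of Snrpa1, while RefSeq starts of Sf3b5 were not analysed here. An annotated coding start also lies in the regions of Hnrnpm (5 of 8 coding transcripts), Snrpc (2 of 4) and Snrpa1 (1 of 1). The CpG ratio, the number of CpG dinucleotides over that expected from the C and G content, was 0.991 in the inner region of Hnrnpm and 0.0682 at its annotated 5' end. It was 1.04 and 0.377 for Sf3b5, 0.917 and 0.0598 for Snrpa1, and 0.822 and 0.187 for Snrpc, each pair with the inner region given before the annotated end. The sequences of these regions are given because they hold the open chromatin that a search at the annotated ends misses, with capitals as above.
Hnrnpm (chr17:33685321-33685580, minus strand): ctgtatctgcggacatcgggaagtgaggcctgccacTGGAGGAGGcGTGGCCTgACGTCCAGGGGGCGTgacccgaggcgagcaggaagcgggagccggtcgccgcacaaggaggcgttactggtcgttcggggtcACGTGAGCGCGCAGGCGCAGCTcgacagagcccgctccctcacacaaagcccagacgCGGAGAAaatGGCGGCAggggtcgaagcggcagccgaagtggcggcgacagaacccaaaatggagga
Sf3b5 (chr10:13008281-13008520, plus strand): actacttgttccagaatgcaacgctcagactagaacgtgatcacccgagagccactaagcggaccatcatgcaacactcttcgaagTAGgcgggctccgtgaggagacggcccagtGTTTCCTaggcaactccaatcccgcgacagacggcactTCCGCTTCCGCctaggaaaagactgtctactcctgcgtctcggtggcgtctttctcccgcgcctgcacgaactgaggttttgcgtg
Snrpa1 (chr7:66060381-66060660, plus strand): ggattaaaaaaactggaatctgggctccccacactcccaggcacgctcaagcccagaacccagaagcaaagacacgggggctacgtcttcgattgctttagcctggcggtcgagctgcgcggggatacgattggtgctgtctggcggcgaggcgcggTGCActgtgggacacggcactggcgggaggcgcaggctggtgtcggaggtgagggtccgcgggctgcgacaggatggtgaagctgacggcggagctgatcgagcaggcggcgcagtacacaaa
Snrpc (chr17:27839941-27840180, plus strand): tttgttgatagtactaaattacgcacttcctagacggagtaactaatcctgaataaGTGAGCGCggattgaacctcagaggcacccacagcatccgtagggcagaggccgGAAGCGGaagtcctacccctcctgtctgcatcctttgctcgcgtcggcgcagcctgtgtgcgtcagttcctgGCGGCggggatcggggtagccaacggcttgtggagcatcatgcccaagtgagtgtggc
Footprints in all 4 libraries covered 67, 21, 4 and 20 bases of these regions in the order shown. Counting the 5' ends of all annotated transcripts of a gene, 49 of the 52 genes had a recurrent promoter region, against 54.7% of all protein-coding genes, and the exceptions were Sf3b5, Snrpn and Srsf12.

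**Figure D4:**
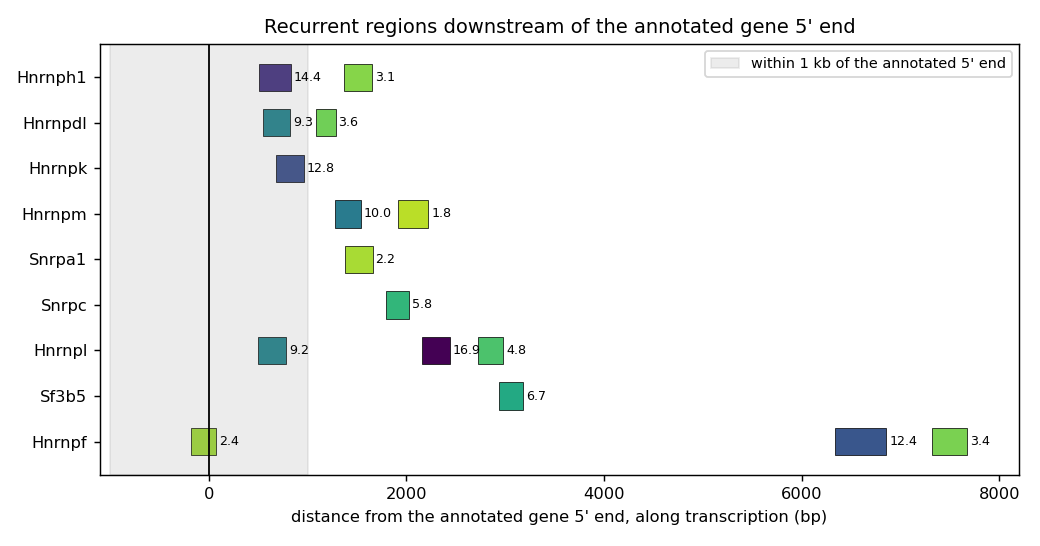
Recurrent regions of 9 genes by their distance from the annotated gene 5' end (x axis, bp along transcription). The genes were picked for a strongest region beyond 1 kb inside the gene, or a strongest promoter region centred more than 500 bp inside. Of the promoter regions only the strongest of each gene is drawn. Regions farther inside, at 12550 bp in Hnrnpl and from 16756 bp on in Hnrnpf, are not drawn. Boxes are drawn to scale and labelled with the mean signal over 4 libraries, darker for a higher signal, and the grey band marks 1 kb on either side. The regions of Hnrnpm, Snrpa1, Snrpc and Sf3b5 lie beyond the band, and that of Hnrnpl at 2300 bp has the highest value, 16.9.

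Snrpn and Srsf12 stayed without a recurrent region anywhere in the gene. In Snrpn, 157.72 kb long, 2 regions were found in 1 library each and no footprint in any library, although a RefSeq start lies 6 bp from the annotated 5' end. In Srsf12, 24.35 kb long, 4 regions were found in 1 library each. Their CpG ratios at the 5' end were 0.176 for Snrpn and 0.273 for Srsf12, against a median of 0.868 over the 52 genes and 0.530 over all protein-coding genes.

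Further recurrent regions lay inside genes that also had a promoter region. Hnrnpl had a region of 13.0, 16.9, 21.4 and 16.4 (16.9 ± 3.42) at 2300 bp, above its promoter in each library, and Hnrnpf had one of 9.54, 11.7, 15.0 and 13.3 (12.4 ± 2.35) at 6596 bp, likewise above its promoter in each library. Both lie within 1 kb of the start of another transcript of the gene. Srsf11 had a region of 4.42, 4.92, 6.42 and 4.81 (5.14 ± 0.878) at 4868 bp. In all, 22 recurrent regions lay in the body of 13 of the 52 genes (25.0%), against 28.5% of all protein-coding genes, and 17 of the 22 were in 8 hnRNP genes. Per 100 kb of gene this was 4.76 for hnRNP genes, 0.731 for SR genes, 1.20 for Sf3a and Sf3b genes and 0.706 for Snrp genes, against 1.26 over all protein-coding genes. Most of the hnRNP regions, with all those in Hnrnpl, Hnrnpm, Hnrnpdl and Hnrnph1, lay within 1 kb of the start of another transcript of the gene. So did those in Srsf11, Snrpc and Snrpa1. The densities thus include regions at alternative starts and were not computed without them. Many SR and hnRNP genes carry exons whose inclusion sends the transcript to decay, and none of the 22 regions overlapped an exon found in decay or intron-retaining transcripts alone. Exons of such transcripts that overlapped an exon of a coding transcript were left out beforehand. A retained intron joined to its coding exons could therefore not be counted, and the number of exons searched was not recorded.

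Most strongest regions sat on the 5' end itself. The region spanned the annotated 5' end in 35 of 46 genes (76.1%), against 74.5% of all genes with a recurrent region, a share near the background. By family this was 8 of 8 Sf3a and Sf3b, 9 of 10 SR, 6 of 9 Snrp and 12 of 19 hnRNP genes. The centre lay more than 500 bp inside the gene at 4 genes, all hnRNP: Hnrnpl (640 bp), Hnrnph1 (670 bp), Hnrnpdl (684 bp) and Hnrnpk (822 bp). This is 8.70% of the 46 genes, against 7.08% of all genes with a recurrent region. Within 500 bp of the annotated 5' end Hnrnph1 and Hnrnpk had no region, which left 44 of 52 genes, against 48.3% of all protein-coding genes. Of the 41 genes with a recurrent promoter region and an entry in the RefSeq start table, the strongest region held a RefSeq start in 33 and lay within 100 bp of one in 36. The share over all genes was not computed, so these counts are not read as particular to the described genes.

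In base composition the 46 regions were less GC-rich but richer in CpG than those of other genes. The median GC content of the 300 bp centred on the strongest recurrent region was 60.7%, against 64.3% for all 10937 genes with such a region, and the median CpG ratio was 0.993, against 0.826. By family the median GC content was 66.0% for SR, 62.0% for hnRNP, 59.7% for Sf3a and Sf3b and 60.3% for Snrp genes. CpG ratios by family were 1.01 for SR, 0.999 for hnRNP, 0.967 for Sf3a and Sf3b and 0.904 for Snrp genes.

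A set of 9 short motifs was searched on both strands of these 300 bp: CCAAT (NFY), GGGCGG (SP and KLF factors), CCGGAAGT (ETS factors), TATAAA (the TATA box), CACGTG (the E-box), TGACGTCA (CREB), AAGATGGCG (YY1), GCGCATGCG (NRF1) and the palindrome-like TCTCGCGAG. CACGTG and TGACGTCA read the same on both strands, TCTCGCGAG can match both strands 1 base apart, and matches of different motifs may overlap. A match describes letters and no binding. CCAAT was found at 27 of the 46 genes (58.7%), against 38.4% of all genes with a recurrent region. It was found at 15 of 19 hnRNP genes, 5 of 10 SR genes, 5 of 9 Snrp genes and 2 of 8 Sf3a and Sf3b genes. In the sequences shown above, Hnrnpr has 4 copies, all on the reverse strand as attgg, and Hnrnpc has 3. The hnRNP genes without a match were Hnrnpd, Hnrnpf, Hnrnph3 and Hnrnpl. CCGGAAGT was found at 9 genes (19.6%), against 9.99%: Sf3a1, Sf3a3, Sf3b2 and Sf3b4 among 8 Sf3a and Sf3b genes, Srsf4 and Srsf5, Snrpb and Snrpe, and Hnrnpf. GGGCGG was found at 35 genes (76.1%), against 70.0%, and CACGTG at 5 (10.9%), against 11.1%.

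**Figure D5:**
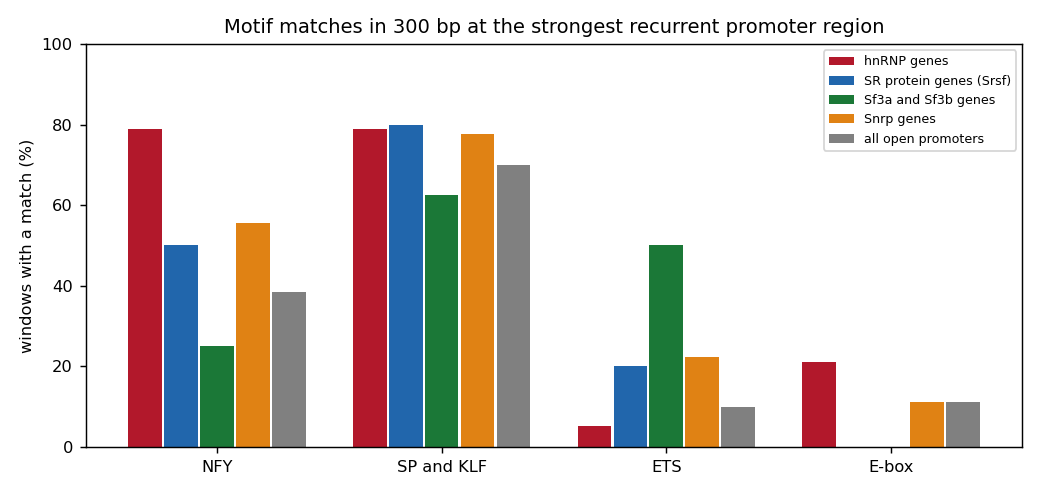
Share of genes (y axis, %) with a match to 4 motifs in the 300 bp at the strongest recurrent promoter region, by family and for all genes with such a region ("all open promoters"). NFY is highest for hnRNP genes (15 of 19) and ETS for Sf3a and Sf3b genes (4 of 8).

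The rarer motifs rested on few genes. TATAAA was found at 5 genes (10.9%), against 3.77%: Srsf3, Hnrnpab, Hnrnpdl, Hnrnpl and Sf3b3. In 300 bp at the annotated 5' end it was found at 7 of all 52 genes (13.5%), against 12.7% of all protein-coding genes, a share near the background. Srsf2 was among these 7, with its TATAAA in a footprint in all 4 libraries. TCTCGCGAG was found at Srsf4, Srsf10 and Hnrnpk (6.52%, against 1.93%), TGACGTCA at Snrpa and Snrpg (4.35%, against 4.19%), AAGATGGCG at Sf3a1 and Sf3b2 (4.35%, against 4.34%), and GCGCATGCG at Srsf7 (2.17%, against 4.28%). Matches lay at least 80% inside a footprint more often at the described genes for the commonest motifs. For GGGCGG this was 63.4% ± 10.7 of 69 matches, against 46.5% ± 6.22 of 17242 over all genes with a recurrent region. For CCAAT it was 29.4% ± 5.06 of 51 matches, against 17.8% ± 2.42 of 6871. For CCGGAAGT it was 35.0% ± 12.9 of 10 matches, against 43.5% ± 10.3 of 1236. Footprints also covered more of the peak bases at the described genes, 25.4% against 19.7%, and the shares of matches were not adjusted for this. The TATAAA of Srsf3, the GCGCATGCG of Srsf7 and the TGACGTCA of Snrpa and Snrpg were footprinted in 4 of 4 libraries.

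Other genes of the splicing machinery were read from 3 lists. Of 34 further genes of the core spliceosome and its particles, 33 had a recurrent promoter region, with a median signal of 8.68 ± 2.21, and Aqr had no peak in any library. The highest were Sf1, for the first branch point binder, with 13.6, 20.2, 26.3 and 25.5 (21.4 ± 5.87) and Snrnp70 of the U1 particle with 10.6, 14.5, 22.3 and 27.0 (18.6 ± 7.39). Replicate 4 was close to or above replicate 3 at Sf1 and Snrnp70, unlike at most of the 46 genes. Of 20 genes related to SR and hnRNP proteins, 18 had a recurrent region, with a median of 7.51 ± 1.70, led by the polypyrimidine tract binder Ptbp1 (12.8 ± 3.60) and Srrm1 (11.6 ± 3.64). The SR protein kinase genes Clk4 and Srpk2 had no peak. The median of the 52 genes, 7.87 ± 1.70, lay between the medians of these lists.

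Splicing regulators known from brain, muscle or epithelium differed from all of these. Of 16 such genes, 4 had a recurrent promoter region (25.0%), below the 50.3% of all protein-coding genes, and the median signal was 0. Nova2 had 0.905, 1.29, 1.89 and 1.24 (1.33 ± 0.408), Celf5 1.12, 1.45, 1.31 and 0 (0.970 ± 0.661), Rbm24 0.470, 0.564, 0.374 and 0.384 (0.448 ± 0.0884) and Esrp1 0.482, 0.574, 0.407 and 0 (0.366 ± 0.253). Rbm20 had a peak in each library (0.470 ± 0.0483), but no overlapping region in 3 of them. No peak was found at Rbfox1, Rbfox3, Nova1, Celf3, Celf4, Elavl2, Elavl3, Khdrbs2 or Srrm4. The signals of Snrpn and Srsf12 lie within the range of this list, and the other members of their families had a recurrent region at or inside the gene.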

How the data were processed

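Per the deposited readmes, the authors derived the peaks, the bases with a low false discovery rate and the footprints of each of the 4 libraries from its own filtered alignments to mm10, without pooling. Aligner and callers, not given in the sources used here, could not be checked. The authors' peaks carry 1 signal value each, in an unstated unit. The deposited false discovery rates are a q-value per run of bases, and every footprint has the same p-value entry, 0.01, taken here as a threshold set by the authors. The depth is unknown, so no counting interval is given. All printed sequences are of mm10, a C57BL/6J assembly, whereas the mice also carry CAST alleles.

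The longer of each library's 2 peak lists was used, and peaks that overlapped by 1 bp or touched were merged across libraries. Genes came from GENCODE M21 and further transcript starts from RefSeq tables of GRCm38.p6, which held 46 of the 52 genes. Peaks and footprints counted where they overlapped the window of 1 kb on either side of the 5' end. The lookup was tested on simulated data with planted peaks. Python 3.11.15, NumPy 2.4.6, pandas 2.3.3 and matplotlib 3.10.9 were used.

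With 1 group no test was made, and families were compared library by library. Values in all libraries are given for the 3 genes of each family with the highest and the 2 with the lowest mean signal, those without a recurrent promoter region, the 4 with the most footprints, up to 6 with a region inside the gene, and the highest genes of the other lists, some of which are not reported here. Hnrnpll was added after its values were seen. The members, the other lists and the markers were chosen with earlier results of these data known. Alternatives were the shorter peak list, windows of 500 bp and 2 kb, all transcript starts, overlap by the centre of a peak or footprint, regions in all 4 libraries or in at least 1, the 36247 strongest peaks of each library, the sum of signals, and leaving out each library.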

Additional observations from a re-analysis of the deposited data

Results flagged for a closer look

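Of 189 sets of 4 library values examined, 9 had a library farther from the others than Dixon's 95% criterion for 4 values allows, and chance alone flags about 1 in 20 such sets. In 7 of the 9 the library was replicate 3, the one with the most peaks and footprints. The promoter signal of Srsf11 was 9.54 in replicate 3, against 6.39 to 6.89 in the other libraries. Srsf12 had its only promoter peak, with a signal of 0.374, and its only promoter footprint, 1, in replicate 3. The region inside Snrpc reached 9.34 in replicate 3, against 4.23 to 4.84 elsewhere. Footprints numbered 13 at Hnrnph3 in replicate 3, against 7 to 8, and 14 at Snrpd2 in replicate 3, against 11 in each other library. At Sf3b6 replicate 3 was the lowest with 4 footprints, against 5 in each other library, and at Sf3b1 replicate 2 was the highest with 7, against 6 in each other library. Where the other 3 libraries hold the same whole number, a difference of 1 footprint is enough to be listed. Outside the 52 genes, Esrp2, an epithelial splicing regulator, had a promoter signal of 0.717 in replicate 1 and no peak in the other libraries.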

How the results depend on the processing

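The count of genes with a recurrent promoter region stayed between 44 and 49 of 52 under every alternative and at 46 when any 1 library was left out. Of the values of families and counts under alternatives, 164 kept within 1 SD, or 1.5 times for a count, and 8 moved. With 500 bp the hnRNP median signal was 8.38 ± 2.25, against 8.05 ± 1.42 for SR genes. The hnRNP percentile was 88.4 ± 1.48, against 87.8 ± 2.52 for SR genes. Both differences were smaller than the SD of either family over the libraries. That SD is not the spread of the difference within a library, which was not computed for 500 bp. The hnRNP mean number of footprints was 7.90, in a window where Hnrnph1 and Hnrnpk have no region. With 2 kb the hnRNP mean was 12.8 footprints, and with all transcript starts it was 14.6, at a median percentile of 94.95. With signals summed in the window the percentile was 95.2 for hnRNP and 77.2 for Snrp genes; the cause was not tested. The hnRNP and SR families stayed first and second in all 10 settings for signal and all 12 for percentile, though nearly level with 500 bp. For footprints hnRNP came before SR in 8 of 9 settings, the exception being 500 bp (7.90 against 8.25 for SR). The order of the Sf3a and Sf3b family and the Snrp family turned with 2 kb (6.04 against 6.52 in signal), with all transcript starts and without replicate 4 (6.04 against 6.57). Without 1 library in turn, the hnRNP median signal ranged from 10.1 to 12.1, SR from 7.50 to 8.60, Sf3a and Sf3b from 5.66 to 6.42 and Snrp from 5.26 to 6.57. Single genes moved by more than 1 SD with 500 bp (3 genes), 2 kb (3) and all transcript starts (5). No paired analysis was possible because there is 1 group. Replicates differ in the number of peaks, the number of reads is not in the files, and a gene without a peak is not shown to be closed.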

Other observations

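Some of the genes lie near each other. Hnrnpd and its paralog Hnrnpdl start 60.7 kb apart on chromosome 5, with promoter signals of 5.69 ± 1.12 and 9.29 ± 2.18. Srsf7 and Hnrnpll start 145.0 kb apart on chromosome 17, with 11.8 ± 2.00 and 3.61 ± 1.33, and Hnrnpk and Hnrnpa0 274.8 kb apart on chromosome 13, with 12.8 ± 3.08 and 7.60 ± 2.13. Srsf10 and Hnrnpr start 455.2 kb apart on chromosome 4, with 7.74 ± 1.94 and 12.2 ± 2.05. In all 4 pairs the means differed by more than the SD of either gene over the libraries.

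Core spliceosome genes outside the 4 families ranged widely as well. U2af2, for the large subunit of the factor that reads the polypyrimidine tract, had 19.25 footprints in the mean library, more than each of the 52 genes except Hnrnpa1, at a signal of 10.7 ± 3.35, while its partner U2af1 had 8.75 footprints at 9.50 ± 1.83. Prpf6, a protein of the tri-snRNP, had the lowest signal of the 33 core genes with a recurrent region, 1.37 ± 0.365. Srrm2, a large scaffold protein of nuclear speckles, had 0.620 ± 0.431 at its annotated 5' end, the lowest of the SR and hnRNP related genes with a recurrent region. These genes were chosen after their values were seen.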
